A study of Mus musculus with 24 samples.

Results

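The genes described here are 39 genes of the NRF2 antioxidant and glutathione system, chosen by name for their known roles, with earlier results of these data known. Counts of members set beside the share of all tested genes are therefore descriptions and not a test of the list. They were looked up among the 47643 genes of each count file. All 39 were found, and 38 passed the filter on low counts. The exception, Gstp1, held 41 counts in all 24 libraries together and was not tested. By role the list held 2 regulators, 4 genes of glutathione synthesis and regeneration, 4 glutathione transferases, 8 peroxidase, catalase and superoxide dismutase genes, 4 thioredoxin genes, 5 genes of NADPH supply, 5 of iron and heme handling, 5 of quinone, aldehyde, epoxide and conjugate handling, and 2 others.

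Salivary glands of C57BL/6 mice received radiation (IR) or a sham treatment, and organoids, small balls of cells grown in a gel, were raised from their stem/progenitor cells. The 8 groups crossed IR or sham with a gland taken 14 or 90 days later and with passage 1 or passage 2 of the culture, and each held 3 libraries numbered 1 to 3. All groups shared the Matrigel culture and a medium with N2 supplement, EGF, FGF2, insulin, dexamethasone and the kinase inhibitor Y-27632. No dose of radiation was found in the sources used here. Because the cells were cultured and passaged before RNA was taken, each value describes the cultured progeny and not the gland itself. Nothing in the labels says that the 3 libraries of a group came from separate animals or cultures, so a p-value covers library-to-library spread alone, and that spread may be technical. In bulk samples such as these, fewer cells of a type and less RNA per cell cannot be told apart.

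NRF2, encoded by Nfe2l2, is a transcription factor that the adaptor protein KEAP1 marks for degradation in resting cells. Oxidants and electrophiles modify KEAP1, NRF2 then accumulates, and with small MAF proteins it binds antioxidant response elements near genes for glutathione synthesis, thioredoxin recycling, NADPH supply and the removal of quinones and aldehydes. Glutathione is the main small thiol of the cell. It serves peroxidases, which reduce hydrogen and lipid peroxides, and transferases, which attach it to reactive compounds.

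The promoters of 4 called genes are shown as examples with and without the letters of an antioxidant response element. Srxn1 rose after IR at day 14 in passage 1, G6pdx there and at day 90 in passage 2, and Gpx3 and Nox4 at day 90 in passage 2. Each run holds the 250 bases before the gene's first listed start, from RefSeq on build GRCm38.p6, read 5′ to 3′ on the gene's strand. Capitals mark a match to TGACNNNGC or TGAGNNNGC, the letters used here for an antioxidant response element, on either strand. The windows are chr2:152105274-152105523 on the plus strand for Srxn1, chrX:74428881-74429130 on the minus strand for G6pdx, chr11:54902604-54902853 on the plus strand for Gpx3 and chr7:87246399-87246648 on the plus strand for Nox4.
Srxn1: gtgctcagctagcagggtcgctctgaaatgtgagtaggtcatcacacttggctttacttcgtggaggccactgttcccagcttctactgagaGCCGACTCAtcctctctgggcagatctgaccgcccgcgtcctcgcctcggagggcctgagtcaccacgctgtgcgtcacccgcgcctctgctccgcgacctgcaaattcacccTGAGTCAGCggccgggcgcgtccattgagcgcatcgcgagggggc
G6pdx: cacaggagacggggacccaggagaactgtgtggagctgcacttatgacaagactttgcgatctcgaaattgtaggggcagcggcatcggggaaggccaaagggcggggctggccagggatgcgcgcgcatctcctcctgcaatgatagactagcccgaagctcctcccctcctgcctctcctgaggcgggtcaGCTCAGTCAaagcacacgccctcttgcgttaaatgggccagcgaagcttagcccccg
Gpx3: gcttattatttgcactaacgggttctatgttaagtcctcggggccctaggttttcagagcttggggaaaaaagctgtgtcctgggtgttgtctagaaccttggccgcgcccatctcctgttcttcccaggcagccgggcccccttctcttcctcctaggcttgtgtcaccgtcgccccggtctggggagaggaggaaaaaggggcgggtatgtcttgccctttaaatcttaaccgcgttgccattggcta
Nox4: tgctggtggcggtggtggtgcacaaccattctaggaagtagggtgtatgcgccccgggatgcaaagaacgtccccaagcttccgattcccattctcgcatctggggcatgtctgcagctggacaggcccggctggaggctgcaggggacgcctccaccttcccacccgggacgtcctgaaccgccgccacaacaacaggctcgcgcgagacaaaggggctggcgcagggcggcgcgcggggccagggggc
Srxn1 held 2 matches, 158 bases before the start on the opposite strand and 45 bases before it on the gene's own strand. G6pdx held 1, on the opposite strand 57 bases before the start. Gpx3 and Nox4 held none in this window, which says only that these letters are not there. Of the 39 members 31 were in the promoter table, and 12 of these (38.7%) held a match to either form, beside 22.8% of all 27025 promoters searched in the same way. TGACNNNGC was in 19.4% of the members' promoters and 10.1% of all, and TGAGNNNGC in 19.4% and 14.2%. The AP-1 letters TGACTCA, which can lie inside a TGACNNNGC match, were in 12.9% and 4.43%. A match is a description of letters, not a binding site. The other called genes in the table, Gsto1, Gpx2, Txnrd1 and Cat, held none either. Thus 2 of the 4 listed genes called at day 14 in passage 1 held a match, and 1 of the 5 called at day 90 in passage 2. Slc48a1, Gclc, Gsta4 and Prdx6, which also rose, were not in the table.

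Gene counts totalled 1151608 to 3189466 in a library (median 2091528.5). Values below are in CPM, a gene's count relative to the library's total after scaling by TMM factors, and means carry the SD of 3 libraries. The libraries were epithelial: 7 of 7 epithelial markers were detected, with a summed level of 4074 to 10454 CPM, while 5 of 7 fibroblast markers summed to 0 to 3.85 CPM with Col3a1 and Pdgfrb at 0, and the 4 globin genes among 5 erythroid markers were at 0. Some libraries stood apart. In day 14, passage 2, sham replicate 1 and IR replicate 3 stood with the opposite treatment in earlier results of these data. Among the members, replicate 1 of the sham group held the highest value for 26 of 38 genes at day 14 in passage 2, for 28 at day 90 in passage 1 and for 24 at day 90 in passage 2, beside 38.7%, 37.8% and 36.7% of all tested genes. At day 14 in passage 1, IR replicate 3 was highest for only 3 of 38 members, beside 35.6% of all tested genes.

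**Figure D1:**
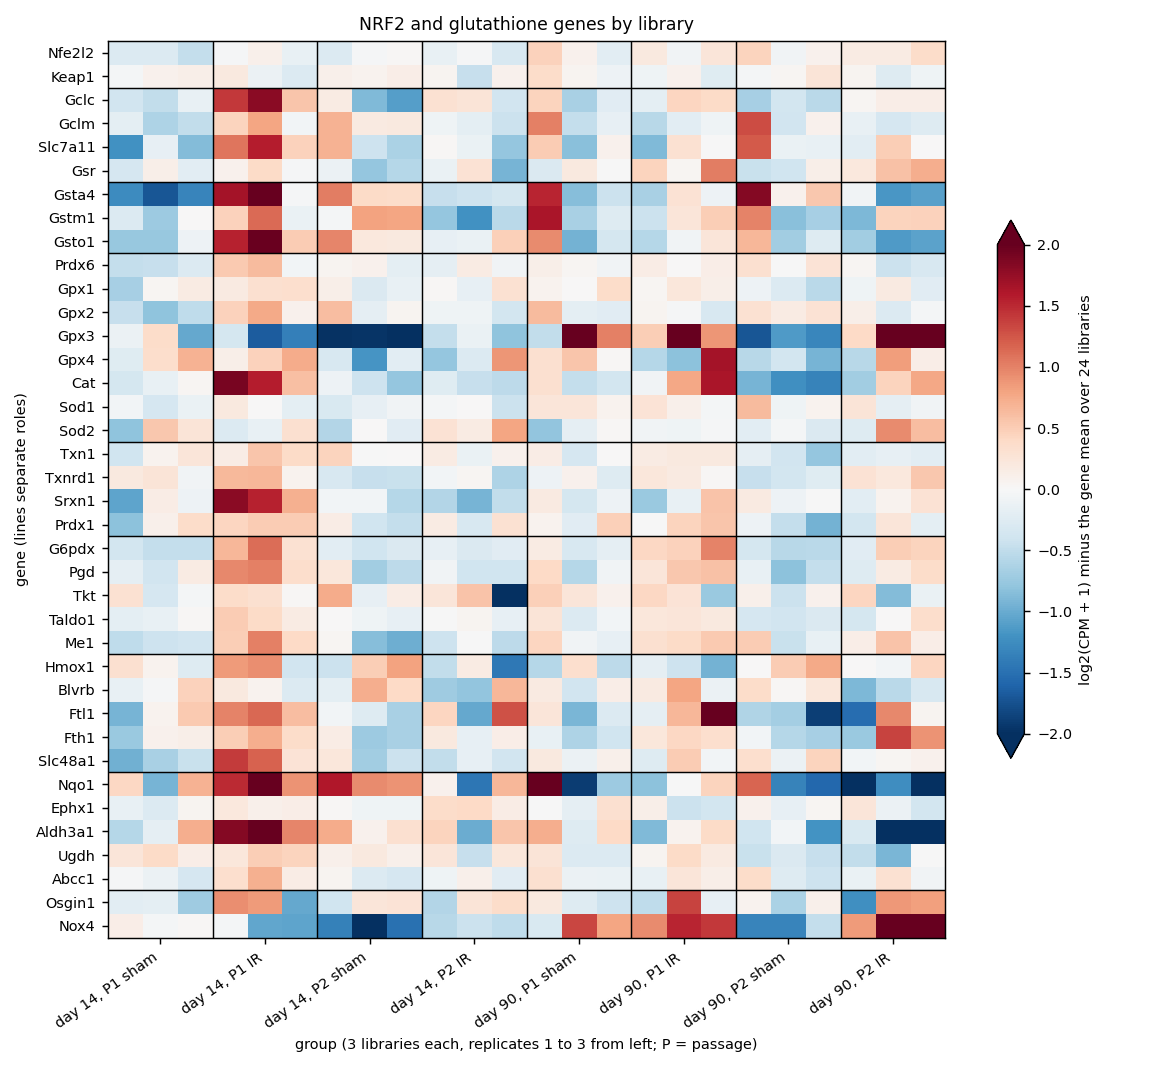
Each row is a gene, grouped by role, and each column a library, in groups of 3 by day, passage and treatment. Colour is log2(CPM + 1) minus the gene's mean over the 24 libraries. The 3 IR libraries of day 14, passage 1 are the block in which most members stand above their mean, and 23 of the 38 tested genes had their highest group mean there. The share of all tested genes with their highest group mean there was not counted.

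Among the regulators Keap1 varied little and Nfe2l2 more. Nfe2l2 stood at 196, 196 and 169.9 CPM in sham and 233, 256 and 214 in IR at day 14, passage 1, and its 8 group means lay between 188 and 279 CPM. Keap1, whose product holds NRF2 down, had group means between 60.4 and 69.9 CPM, a ratio of 1.16 from lowest to highest. Neither gene passed the test in any of the 12 comparisons. The wide movers were Gpx3, with a ratio of 142 between its highest and lowest group mean, Nox4 with 48.7, Nqo1 with 26.2, Aldh3a1 with 8.02, Gsta4 with 7.98, Cat with 6.16 and Gsto1 with 5.37. Among the 38 tested genes these were the 7 with a ratio of at least 5, and 6 had a ratio under 1.5. The ratios of Gpx3, Nox4 and Nqo1 rest on lowest group means near the limit of detection. In sham at day 14, passage 2, Gpx3 was at 0.530 CPM (3 counts in the group) and Nox4 at 0.333 CPM (2 counts). Nqo1 was at 0.891 CPM (7 counts) in IR at day 90, passage 2.

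Of the 12 comparisons, IR against sham at day 14 in passage 1 had the most members called. Of the 38 tested members 8 rose and 0 fell, beside 0.293% and 0.0473% of all 10563 tested genes (edgeR's quasi-likelihood test, Benjamini-Hochberg adjusted p under 0.05 over all tested genes). The 8 covered 6 roles: glutathione synthesis, transferases, peroxidases, thioredoxin, NADPH supply and heme transport. In 33 of 38 members the log2 fold change was above 0, and its median was 0.61, beside −0.01 over all tested genes. At an unadjusted p under 0.05, 16 were higher and 0 lower, beside 5.50% and 5.48% of all tested genes. In 23 members every IR library lay above every sham library, where 8.84% of all tested genes did so, and in 1, Nox4, every IR library lay below, where 8.40% did. Because the list was chosen with earlier results of these data known, its differences from all tested genes carry no test.

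Glutathione synthesis was represented among the called genes by Gclc, the catalytic subunit of glutamate-cysteine ligase, which carries out the rate-limiting step. Gclc stood at 217, 200.2 and 255 CPM in sham and 756, 990.2 and 416 in IR. All 3 IR libraries were above all 3 sham libraries, and the log2 fold change was 1.68 (SE 0.32, adjusted p = 0.0296 by edgeR). The modifier subunit Gclm stood at 201, 150.1 and 162 CPM in sham and 314, 398 and 222 in IR, again without overlap, with a log2 fold change of 0.86 that did not pass the test (edgeR adjusted p = 0.369). Slc7a11, the cystine importer that feeds this pathway, stood at 80.3, 166 and 102 CPM in sham and at 392, 556 and 256 in IR. Its groups did not overlap, and its log2 fold change of 1.78 missed the threshold (edgeR adjusted p = 0.0772). Gsr, which regenerates reduced glutathione, stood at 32.1 ± 5.59 CPM (SD, n = 3) in sham and 39.5 ± 6.05 in IR.

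Of the 3 tested transferases 2 rose. Gsta4, which conjugates the lipid peroxidation product 4-hydroxynonenal, stood at 37.1, 26.8 and 35.4 CPM in sham and 286, 419 and 88.1 in IR. The IR libraries were all higher but spread widely, and the log2 fold change was 2.98 (SE 0.60, edgeR adjusted p = 0.0332). Gsto1, an omega-class transferase with thiol reductase activity, stood at 179.6, 179 and 283 CPM in sham and 878, 1199 and 431 in IR, a log2 fold change of 1.96 (SE 0.43, edgeR adjusted p = 0.0474) with no overlap. Gstm1, a mu-class enzyme with close relatives that make its count uncertain, stood at 28.5 ± 7.25 CPM in sham and 53.0 ± 23.6 in IR (SD, n = 3) and was not called. Gstp1 has near-identical copies whose reads may be split or dropped, so its low count is uncertain.

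Among the peroxidase, catalase and dismutase genes, Gpx2 and Prdx6 rose. Gpx2, the epithelial glutathione peroxidase, stood at 128, 101 and 124 CPM in sham and 242, 299.5 and 187 in IR. No sham library reached the lowest IR library, and the log2 fold change was 1.04 (SE 0.23, edgeR adjusted p = 0.0474). Prdx6, a peroxiredoxin that acts on phospholipid peroxides, stood at 85.1, 86.1 and 98.0 CPM in sham and 171, 185 and 114 in IR, a log2 fold change of 0.80 (SE 0.17, edgeR adjusted p = 0.0467) without overlap. Catalase, which breaks down hydrogen peroxide in peroxisomes, was at 124, 143 and 162 CPM in sham and 588, 471 and 240.1 in IR, with a log2 fold change of 1.60 that missed the threshold (edgeR adjusted p = 0.0629). The dismutases Sod1 and Sod2, which turn superoxide into peroxide, were not called, with Sod1 at 219 ± 21.5 CPM in sham and 248 ± 34.5 in IR and Sod2 at 119 ± 50.8 and 110.1 ± 25.2 (SD, n = 3). Gpx1, the cytosolic glutathione peroxidase, stood at 129.6, 211 and 230.0 CPM in sham and 232, 258 and 259.7 in IR, without overlap, and was not called. Gpx4, which protects membranes from lipid peroxidation, was at 8.47 ± 2.95 and 9.46 ± 2.25 CPM (SD, n = 3), a count that its processed copies make uncertain.

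In the thioredoxin group Srxn1 rose. Its product, sulfiredoxin, restores over-oxidised peroxiredoxins. Srxn1 stood at 17.6, 41.9 and 34.9 CPM in sham and 134, 111 and 62.4 in IR, with all IR libraries higher, a log2 fold change of 1.69 (SE 0.31, edgeR adjusted p = 0.0265). Txnrd1, the cytosolic thioredoxin reductase, stood at 182, 190.3 and 151 CPM in sham and 251, 253 and 167 in IR. The 2 groups overlapped and the gene was not called. Txn1 stood at 426 ± 93.7 and 552 ± 75.9 CPM and Prdx1 at 468 ± 177 and 672 ± 19.7 (SD, n = 3), neither called, and both have processed copies in the genome that make their counts uncertain.

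NADPH, which both glutathione and thioredoxin recycling consume, is supplied in large part by the pentose phosphate pathway. G6pdx, its first enzyme, rose from 29.0, 26.8 and 26.7 CPM in sham to 60.1, 83.1 and 46.4 in IR, a log2 fold change of 1.18 (SE 0.22, edgeR adjusted p = 0.0287) with no overlap. Me1, the cytosolic malic enzyme, stood at 35.6 ± 1.65 CPM in sham and 77.1 ± 18.5 in IR (SD, n = 3), and its log2 fold change of 1.10 did not pass (edgeR adjusted p = 0.0772). Pgd, the next NADPH-producing enzyme of the pathway, had a log2 fold change of 0.92 (edgeR adjusted p = 0.145) and Taldo1, of its non-oxidative arm, 0.46 (edgeR adjusted p = 0.262). Tkt, also of that arm, stood at 286 ± 64.8 CPM in sham and 339 ± 41.9 in IR (SD, n = 3). Of these 5 genes G6pdx alone was called.

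Iron and heme handling was led by Slc48a1, the heme transporter HRG1, which had the smallest adjusted p among the members. It stood at 44.6, 55.3 and 64.2 CPM in sham and 233, 199 and 105 in IR. The lowest IR library was above the highest sham library, and the log2 fold change was 1.70 (SE 0.27, edgeR adjusted p = 0.00938). Hmox1, the inducible heme oxygenase and a widely used NRF2 target, stood at 65.1 ± 12.9 CPM in sham and 93.6 ± 40.2 in IR (SD, n = 3) and was not called. The ferritin subunits, which store iron, were at 56.7 ± 26.4 and 108 ± 19.9 CPM for Ftl1 and 754 ± 227 and 1189.8 ± 148 for Fth1 (SD, n = 3), were not called, and have many processed copies. In the last of these roles, quinone and aldehyde handling, no member was called: Nqo1, the quinone reductase often used to read NRF2 activity, stood at 7.43, 2.33 and 9.24 CPM in sham and 16.8, 42.5 and 10.8 in IR, and Aldh3a1, an aldehyde dehydrogenase of surface epithelia, at 34.4, 45.4 and 85.7 and at 185, 209.8 and 102. In both genes the groups did not overlap. Of the other members of the role, Abcc1, which exports glutathione conjugates, had group means from 43.0 to 65.3 CPM, the epoxide hydrolase Ephx1 from 52.5 to 75.2 CPM and Ugdh from 11.6 to 21.2 CPM over the 8 groups. Osgin1, an oxidative stress response gene listed under no role, had group means from 3.56 to 7.14 CPM.

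**Figure D2:**
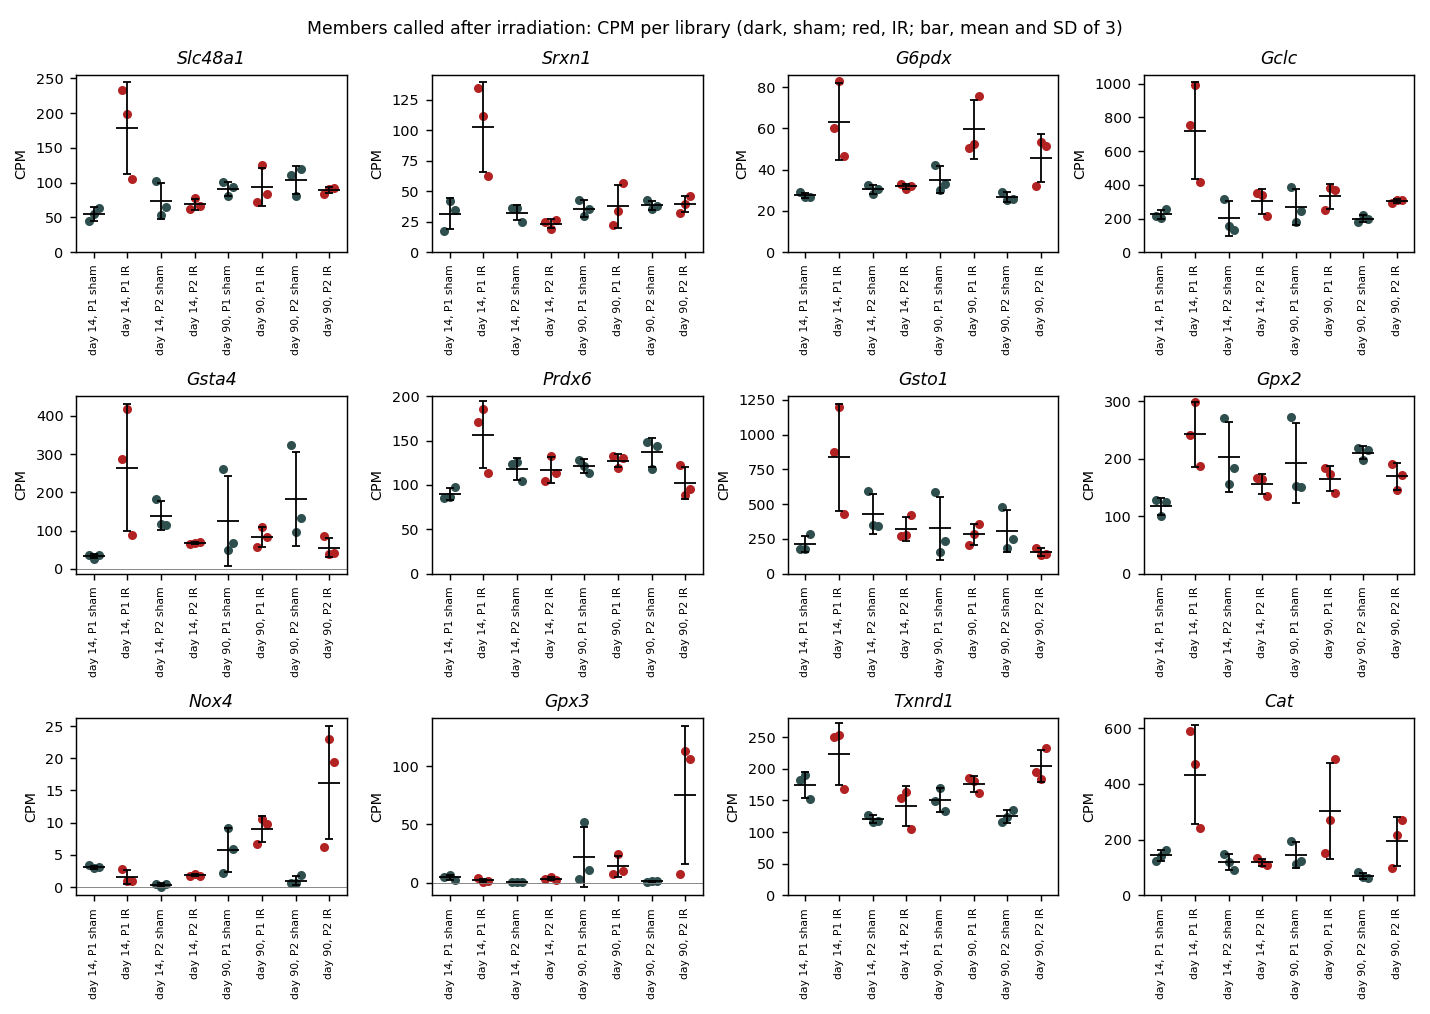
Points are CPM per library on linear axes from 0, with the mean and SD of 3 libraries, for each member called after IR. In the genes called at day 14 the IR libraries of passage 1 stand above their sham libraries, with Gsta4 at 264 ± 166 CPM against 33.1 ± 5.56. Gpx3 and Nox4 have their highest group means in IR at day 90, passage 2, where replicate 1 lies well below replicates 2 and 3.

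These calls depended on single libraries. All 8 were lost when replicate 1 or replicate 2 of either group was left out, and only Slc48a1 kept its call when sham replicate 3 was. Without IR replicate 3, the lowest IR library in each of the 8, 12 members were called, the same 8 with Cat, Me1, Pgd and Slc7a11. The share of all tested genes called in that fit is not given here. Prdx6 also lost its call when only the compared groups were fitted (edgeR adjusted p = 0.0900). Genes of squamous differentiation were higher in the same libraries: 15 of 15 were detected in the series, and their summed level was 754 to 860 CPM in the sham libraries and 2518, 3782 and 1294 CPM in IR replicates 1 to 3, with Krt1 at 0 in both groups and Lce3a at 0 in sham. Of 8 immune markers 7 were detected in the series, summing to 8.10 to 9.24 CPM in sham and 17.8 to 51.9 CPM in IR, with Cd3e and Ms4a1 at 0 in both. The 5 myoepithelial markers, all detected, summed to 24.4 to 36.5 CPM in sham and 4.33 to 8.91 CPM in IR. Acinar markers, of which 6 of 7 were detected in each group, summed to 389 to 525 CPM in sham and 158 to 435 CPM in IR, with overlap. The part of these cell types in the result was not tested.

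After IR at day 14 in passage 2, 0 of 38 members were called by edgeR, beside 0.0189% of all tested genes, and 0 by DESeq2, while 2 members were higher and 2 lower at an unadjusted p under 0.05, where 3.93% and 2.80% of all tested genes were. The median log2 fold change was −0.01, and 0.03 with total counts in place of TMM factors. In 4 members, Gpx3, Sod2, Ephx1 and Nox4, every IR library lay above every sham library, where 6.06% of all tested genes did so, and in 4, Gclm, Gsta4, Gstm1 and Nqo1, every IR library lay below, where 5.49% did. The smallest p-values were those of Gstm1, Sod2 and Nox4. Gstm1 stood at 34.1, 62.0 and 61.1 CPM in sham and 20.1, 14.6 and 23.9 in IR, a log2 fold change of −1.40 (SE 0.57, edgeR adjusted p = 0.680). Sod2, the mitochondrial dismutase, stood at 73.3, 111 and 94.3 CPM in sham and 136, 125 and 193 in IR, a log2 fold change of 0.71 (SE 0.30, edgeR adjusted p = 0.687). Neither gene's groups overlapped. Nox4, an NADPH oxidase that makes hydrogen peroxide, was near the limit of detection, at 0.568, 0 and 0.431 CPM in sham and 1.72, 1.99 and 1.81 in IR, with a log2 fold change of 2.23 (SE 0.98, edgeR adjusted p = 0.712).

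Of the genes that rose in passage 1, Gsta4 had its groups apart in the opposite order in passage 2. It stood at 183, 118 and 116 CPM in sham and 65.4, 67.0 and 69.9 in IR, so that every IR library lay below every sham library. The sham libraries of passage 2 had Gsta4 levels above all sham libraries of passage 1. Squamous genes summed to 2470 to 3201 CPM in sham and 1052 to 1715 CPM in IR here. Immune markers, 1 of 8 detected in sham and 5 in IR, summed to 0.861 to 1.18 CPM and 2.17 to 7.30 CPM, and myoepithelial markers, 3 of 5 detected in sham and 5 in IR, to 14.2 to 17.7 CPM and 1.99 to 9.78 CPM. The part of these cell types in the values was not tested. Other members called in passage 1 overlapped here. Gclc stood at 318, 153 and 131 CPM in sham and 352, 338 and 216 in IR, and the IR mean of G6pdx was 1.05 times and that of Prdx6 0.991 times the sham mean. Without the 2 libraries that stood with the opposite treatment Gclc was called, but those libraries were set aside for their resemblance to the other treatment, so this call is no evidence of an effect of IR.

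**Figure D3:**
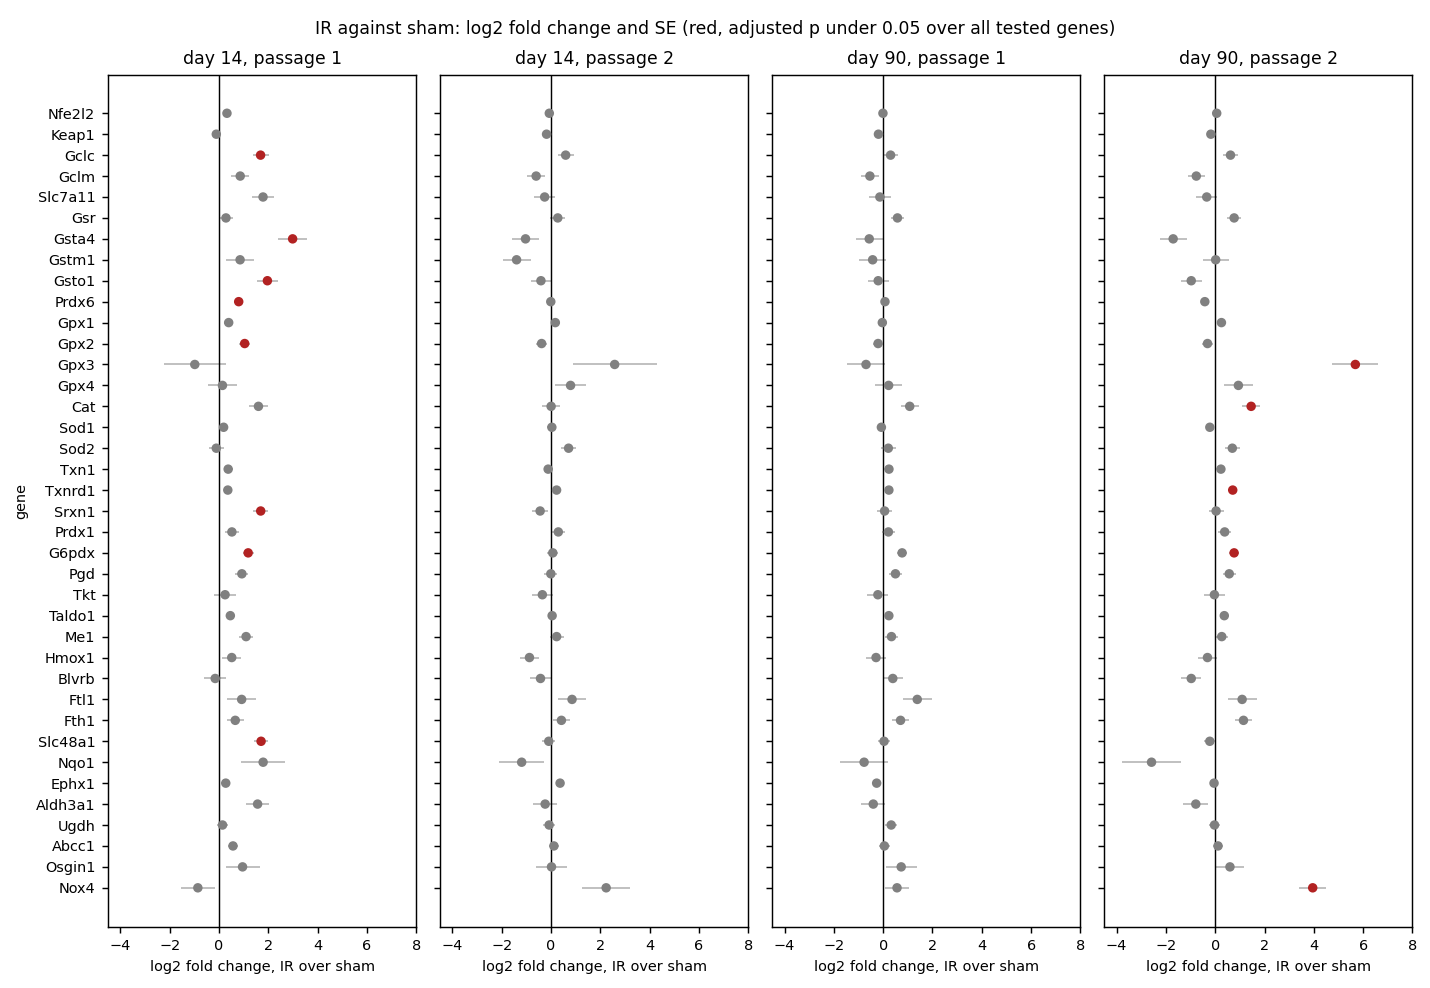
Points are log2 fold changes of IR over sham with their SE for the 38 tested members in the 4 comparisons, and red points passed an adjusted p of 0.05. There are 8 red points at day 14, passage 1 and 5 at day 90, passage 2, and none in the other panels. Gsta4 lies at 2.98 at day 14, passage 1 and at −1.71 at day 90, passage 2.

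After IR at day 90 in passage 1, 0 of 38 members were called by edgeR, beside 0.0473% of all tested genes, and 0 by DESeq2, with 4 members higher and 0 lower at an unadjusted p under 0.05, where 5.66% and 7.02% of all tested genes were. G6pdx came nearest, at 42.3, 29.9 and 33.1 CPM in sham and 50.5, 52.2 and 75.8 in IR, without overlap, a log2 fold change of 0.77 (SE 0.21, edgeR adjusted p = 0.140). Cat stood at 196, 113 and 122 CPM in sham and 150.0, 269.6 and 489 in IR, a log2 fold change of 1.08 (SE 0.37, edgeR adjusted p = 0.221) with overlapping groups. Ftl1 stood at 66.6, 29.6 and 46.6 CPM in sham and 49.5, 89.9 and 231 in IR, a log2 fold change of 1.38 (SE 0.58, edgeR adjusted p = 0.308). Its groups overlapped too. Fth1 was one of 3 members, with G6pdx and Txn1, in which every IR library lay above every sham library, at 739, 536 and 622 CPM in sham and 959, 1089.8 and 1040.2 in IR, where 9.21% of all tested genes did so. In 0 members did every IR library lie below, where 10.3% of all tested genes did.

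In several members the sham group of this comparison was set apart by replicate 1. Gsta4 stood at 260.1, 49.3 and 66.7 CPM, Gclm at 463, 164 and 206 and Gsto1 at 585, 157 and 238 in the 3 sham libraries. Squamous genes summed to 3113 CPM in that replicate, against 1147 to 1423 CPM in the other two, and to 471 to 809 CPM in IR. Acinar markers, 6 of 7 detected in each group, summed to 279 to 333 CPM in sham and 32.7 to 193 CPM in IR, and myoepithelial markers, 4 of 5 detected in each, to 6.77 to 12.7 CPM and 4.63 to 5.67 CPM, both without overlap. Immune markers, 6 of 8 detected in each group, overlapped. They summed to 1.13, 20.4 and 10.1 CPM in sham and 4.12, 15.9 and 35.5 in IR. The part of these cell types in the values was not tested.

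After IR at day 90 in passage 2, 5 of 38 members rose and 0 fell, beside 2.97% and 1.95% of all tested genes. The 5 were the peroxide-producing oxidase Nox4, the secreted glutathione peroxidase Gpx3, Txnrd1, Cat and G6pdx. Gclc, Gsta4, Gsto1, Gpx2, Prdx6, Srxn1 and Slc48a1, called at day 14 in passage 1, were not called here. The median log2 fold change was 0.09, beside 0.01 over all tested genes, and with total counts it was −0.03, beside −0.10. At an unadjusted p under 0.05, 10 members were higher and 6 lower, where 9.99% and 8.27% of all tested genes were.

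Nox4 stood at 0.599, 0.608 and 1.88 CPM in sham and 6.25, 23 and 19.5 in IR. The groups did not overlap, the log2 fold change was 3.95 (SE 0.55, edgeR adjusted p = 0.000353), and the call held in all 15 alternatives tried. Gpx3 stood at 0.899, 1.82 and 1.50 CPM in sham and 7.14, 113 and 106 in IR, also without overlap, with IR replicate 1 far below the other two. Its log2 fold change was 5.68 (SE 0.93, edgeR adjusted p = 0.00133), a call that a fit to the compared groups alone did not keep (edgeR adjusted p = 0.0522). Because the sham level was a few counts per library, these folds rest on small denominators. In the fit to the compared groups alone, both genes passed the filter on low counts only through the IR libraries. That fit could have called a rise in them and not a fall. Fibroblast markers summed to 0.300 to 0.751 CPM in these sham libraries and 0.298 to 0.836 CPM in IR, with Col1a2, Col3a1 and Pdgfrb at 0 in both groups. Acinar markers, 7 of 7 detected in sham and 5 of 7 in IR, where Dcpp1 and Muc19 were at 0, summed to 304 to 1224 CPM in sham and 151 to 267 CPM in IR, without overlap, and their part in these results was not tested.

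The other 3 had smaller folds at higher levels. Txnrd1 rose from 116, 123 and 136 CPM to 195, 184 and 233, a log2 fold change of 0.71 (SE 0.17, edgeR adjusted p = 0.0178). Cat rose from 82.1, 66.9 and 62.0 CPM to 97.0, 215 and 269, a log2 fold change of 1.46 (SE 0.38, edgeR adjusted p = 0.0255). G6pdx rose from 29.4, 25.2 and 25.5 CPM to 32.1, 53.5 and 51.5, a log2 fold change of 0.77 (SE 0.21, edgeR adjusted p = 0.0382). In all 3 the lowest IR library was above the highest sham library, and in Cat and G6pdx IR replicate 1 lay nearest to the sham libraries. G6pdx also lost its call with total counts in place of TMM factors (edgeR adjusted p = 0.0768). Between 2 and 3 members were called when a sham library, IR replicate 2 or IR replicate 3 was left out, and 12 without IR replicate 1. The shares of all tested genes called in these fits are not given here, so these counts do not set the members apart from other genes. With Gm42418, a transcript that overlaps ribosomal RNA, entered as a covariate by its percentage of the counts, 2 members were called: its percentage was 13.1% to 15.5% in sham and 13.5% to 24.3% in IR, and its part in the result was not tested. The 2 were Nox4 and Gpx3. Fitted to the compared groups alone, 1 member, Nox4, was called.

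In 7 members, the 5 called with Gclc and Gsr, every IR library lay above every sham library, where 10.9% of all tested genes did so. Gsr stood at 25.5, 26.4 and 38.3 CPM in sham and 40.8, 53.5 and 59.2 in IR, and Gclc at 179, 219 and 195 and at 290.2, 310.4 and 311. Members with lower values in IR at this time did not pass the test. Gsta4 stood at 323, 95.1 and 132 CPM in sham and 85.7, 39.7 and 41.8 in IR, a log2 fold change of −1.71 (edgeR adjusted p = 0.0771), and Gsto1 at 478, 187 and 252 CPM and 186, 137 and 143, a log2 fold change of −0.97 (edgeR adjusted p = 0.211). Every IR library of both lay below every sham library, as it did in Gpx2 and Blvrb, where 9.64% of all tested genes did so. Nqo1 was at 13.2, 1.52 and 1.13 CPM in sham and 0.595, 1.67 and 0.406 in IR, with overlap. Fth1 stood at 793, 553 and 516 CPM in sham and 488, 2098 and 1537 in IR, a log2 fold change of 1.15 that missed the threshold (edgeR adjusted p = 0.0571). Squamous genes summed to 1900 to 4565 CPM in sham, with the top value in replicate 1, and to 458 to 1022 CPM in IR. Their part in these values was not tested.

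**Figure D4:**
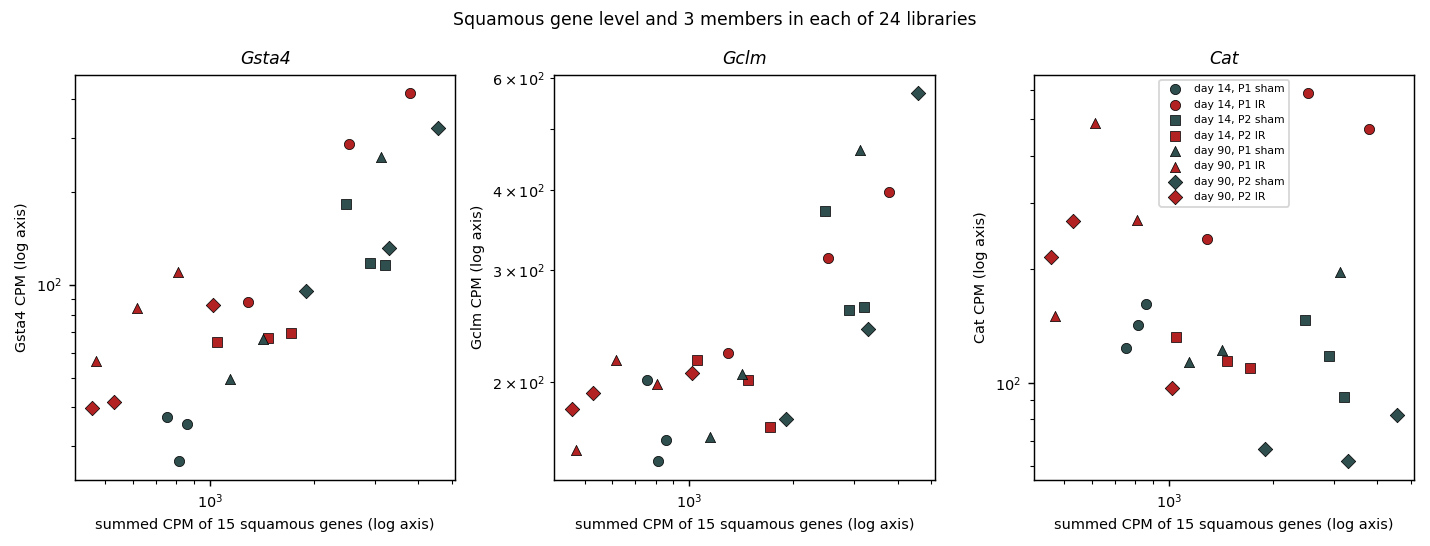
Each point is a library, with the summed CPM of 15 squamous genes on the x axis and the CPM of Gsta4, Gclm or Cat on the y axis, both log axes. Colour separates sham from IR and the marker shape gives day and passage. The 2 libraries with the highest squamous sums, 4565 CPM in sham replicate 1 of day 90, passage 2 and 3782 CPM in IR replicate 2 of day 14, passage 1, have Gsta4 at 323 and 419 CPM, Gclm at 569 and 398 CPM and Cat at 82.1 and 471 CPM. Sham libraries of day 14, passage 2 at 2901 and 3201 CPM have Gsta4 at 118 and 116 CPM.

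Whether the response to IR differed between days or passages was tested directly. For day in passage 1, 0 members were called, beside 0.0189% of all tested genes, with 0 higher and 11 lower at an unadjusted p under 0.05, where 3.37% and 4.74% of all tested genes were. The nearest were Slc48a1 with a difference in log2 fold change, day 90 less day 14, of −1.67 (SE 0.37, edgeR adjusted p = 0.144), Gsta4 with −3.55 (SE 0.81, edgeR adjusted p = 0.144) and Gpx2 with −1.24 (SE 0.32, edgeR adjusted p = 0.222). DESeq2 called 2, Gsta4 and Slc48a1. For passage at day 14, 0 members were called, beside 0% of all tested genes, with 1 higher and 17 lower at an unadjusted p under 0.05, where 3.64% and 3.26% of all tested genes were. Gsta4 differed by −4.02 (SE 0.81), Srxn1 by −2.13 (SE 0.46) and Slc48a1 by −1.80 (SE 0.38), passage 2 less passage 1, each with an edgeR adjusted p of 0.181. DESeq2 called 5, Gpx2, Gsta4, Gsto1, Slc48a1 and Srxn1. Here and below, the shares of all tested genes called are those of edgeR. The shares under DESeq2 are not given, so its counts of members have no background beside them. These tests share the day 14, passage 1 libraries with each other.

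For day in passage 2, 0 members were called by edgeR, beside 0.00947% of all tested genes, and 0 by DESeq2, with 2 higher and 0 lower at an unadjusted p under 0.05, where 2.56% and 2.58% of all tested genes were. Cat differed by 1.46 (SE 0.53, edgeR adjusted p = 0.859), G6pdx by 0.70 (SE 0.31, edgeR adjusted p = 0.925) and Txnrd1 by 0.49 (SE 0.25, edgeR adjusted p = 0.951), day 90 less day 14. For passage at day 90, 0 were called by edgeR, beside 0% of all tested genes, and 1 by DESeq2, Gpx3, with 2 higher and 2 lower at an unadjusted p under 0.05, where 2.52% and 1.33% of all tested genes were. Gpx3 differed by 6.38 (SE 1.21, edgeR adjusted p = 0.288), Nox4 by 3.39 (SE 0.74, edgeR adjusted p = 0.302) and Blvrb, a biliverdin reductase, by −1.36 (SE 0.58), passage 2 less passage 1. No difference in response between days or passages thus passed the edgeR test in these members, which does not show that the responses were alike.

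Among sham libraries, passage 2 set against passage 1 at day 90 gave 2 lower members and 0 higher, beside 0.918% and 0.445% of all tested genes. At an unadjusted p under 0.05, 7 were lower and 0 higher, where 8.05% and 5.91% of all tested genes were. Nox4 stood at 2.26, 9.15 and 5.95 CPM in passage 1 and 0.599, 0.608 and 1.88 in passage 2, without overlap, a log2 fold change of −2.55 (SE 0.59, edgeR adjusted p = 0.0308). Gpx3 stood at 3.39, 51.7 and 11.4 CPM in passage 1 and 0.899, 1.82 and 1.50 in passage 2, a log2 fold change of −3.96 (SE 0.96, edgeR adjusted p = 0.0397), also without overlap. Immune markers summed to 1.13, 20.4 and 10.1 CPM in the same passage 1 libraries and 3.59, 2.43 and 1.50 in passage 2, with overlap. Their part in these values was not tested. In 8 members every passage 2 library lay below every passage 1 library, where 11.9% of all tested genes did so, and in 0 above, where 8.99% did. Both calls were kept without passage 1 replicate 1 and lost when any of the other 5 libraries was left out or when the Gm42418 share, 11.8% to 28.6% in passage 1, was a covariate. In these 2 groups alone neither Nox4 nor Gpx3 passed the filter on low counts, so both were tested only because other groups were in the fit. These passage 2 sham libraries are the same that served as controls for the IR comparison at day 90, so the 2 sets of values are not independent.

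At day 14, 0 members were called between passages by edgeR, beside 1.18% of all tested genes, and 2 by DESeq2, Gpx2 and Gsta4, with 5 higher and 2 lower at an unadjusted p under 0.05, where 4.93% and 6.50% of all tested genes were. Gsta4 had a log2 fold change of 2.07 (SE 0.59, edgeR adjusted p = 0.0980), Gpx2 of 0.79 (SE 0.23, edgeR adjusted p = 0.104) and Nox4 of −2.98 (SE 0.91, edgeR adjusted p = 0.136), with no overlap in any of them. In 6 members every passage 2 library lay above every passage 1 library, where 8.30% of all tested genes did so, and in 3, Gpx3, Txnrd1 and Nox4, below, where 8.66% did. Gpx2 stood at 128, 101 and 124 CPM in passage 1 and 272, 156 and 183 in passage 2. Squamous genes summed to 754 to 860 CPM in passage 1 and 2470 to 3201 CPM in passage 2 of these sham groups, and their part in these values was not tested.

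Between days, 0 members were called in sham at passage 1, beside 0% of all tested genes, and 0 at passage 2, beside 0.426%, and DESeq2 called 0 in each. At an unadjusted p under 0.05, 6 members stood out in passage 1, all higher at day 90, beside 9.70% of all tested genes in either direction, and 4 in passage 2, 2 higher and 2 lower, beside 13.7%. The nearest in passage 1 were Gsta4 at a log2 fold change of 1.89 (SE 0.59, edgeR adjusted p = 0.246), Gpx2 at 0.70 (SE 0.23, edgeR adjusted p = 0.275) and Nfe2l2 at 0.48 (SE 0.17, edgeR adjusted p = 0.321). Every day 90 library lay above every day 14 library in 8 members, where 8.79% of all tested genes did so, and below in 0, where 6.72% did. In passage 2 they were Txn1 at −0.60 (SE 0.18, edgeR adjusted p = 0.141), Ugdh, which makes UDP-glucuronate for conjugation, at −0.57 (SE 0.24, edgeR adjusted p = 0.286) and Sod1 at 0.41 (SE 0.18, edgeR adjusted p = 0.304). There 2 members, Gpx3 and Nox4, had every day 90 library above every day 14 library, where 11.1% of all tested genes did so, and 5 had every one below, where 11.3% did.

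The wider pathway was read from 124 other genes, 9 of them NADPH oxidases and their partners and the rest of related roles, and 94 were tested. After IR at day 14 in passage 1, 1 of the 94 rose and 0 fell, beside 0.293% and 0.0473% of all tested genes: Abcc4, an exporter of conjugates, from 6.75, 11.6 and 12.3 CPM to 45.2, 44.4 and 17.8, a log2 fold change of 1.76 (SE 0.39, edgeR adjusted p = 0.0474). After IR at day 90 in passage 2, 6 rose and 0 fell, beside 2.97% and 1.95% of all tested genes. Cyba, the membrane partner that Nox4 needs, rose from 1.20, 2.74 and 2.63 CPM to 7.14, 16.7 and 8.92, a log2 fold change of 2.29 (SE 0.41, edgeR adjusted p = 0.00276), with every IR library above every sham library. The others were the microsomal transferase Mgst1 (log2 fold change 1.40), the fatty aldehyde dehydrogenase Aldh3a2 (0.83), the mitochondrial NADPH source Nnt (0.78), the heme-binding Pgrmc1 (0.68) and the peroxiredoxin Prdx5 (0.58), with edgeR adjusted p-values from 0.0159 to 0.0358. In sham, Cyba was lower in passage 2 than in passage 1, with a log2 fold change of −2.79 at day 14 (SE 0.49, edgeR adjusted p = 0.00527) and −2.18 at day 90 (SE 0.42, edgeR adjusted p = 0.00927). In the other 8 comparisons 0 of the 94 were called by edgeR and 0 to 2 by DESeq2, with 2 to 16 at an unadjusted p under 0.05 in either direction, where 3.85% to 13.7% of all tested genes were.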

How the data were processed

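The 24 libraries were made with a kit that reads the 3′ end of polyadenylated RNA, per the labels' protocols, so a count does not grow with transcript length. The authors deposited a raw count of reads for every gene in a library, not normalized. Per the submitters' processing notes, bcl2fastq and the build GRCm39 were used. Aligner, counter, annotation and strand are each not given in the sources used here, so overlapping genes and near-identical copies are uncertain. The 5 lines that name no gene stayed out of every total and test. Reads outside genes were 11.5% to 26.5% of a library and ambiguous reads 0.259% to 0.451%. Symbols were matched by identifier for 47224 of 47643 genes. No 2 files were identical, and all 24 replicate pairs differed by more than sampling noise (chi-square per degree of freedom 2.07 to 26.7).

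Tests on the counts used edgeR 4.0.16 (quasi-likelihood, with limma 3.58.1) in R 4.3.3, with TMM factors, filterByExpr on 8 groups (10563 genes) and group means over all 24 libraries. p-values are two-sided and Benjamini-Hochberg adjusted over all tested genes in each of 12 comparisons, with calls at 0.05. SE is the absolute log2 fold change over the square root of F. The procedure was tested on simulated counts with the same relative spread set for every gene. That check does not show how the tests behave at the spread of these libraries. Every called member is named, or the 3 with the smallest p where none was called; others are given by level. Alternatives were RLE factors, total counts, DESeq2 1.42.0, no filter, 5 CPM in 3 libraries, a replicate block, the share of Gm42418, ribosomal RNA genes left out, only the compared groups and each library left out. Leaving out 2 libraries that stood apart was chosen after seeing the data. The members and lists were chosen with earlier results of these data known.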

Additional observations from a re-analysis of the deposited data

Results flagged for a closer look

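In 4 members the IR and sham libraries of day 14 lay apart in opposite orders in the 2 passages. Every IR library was on one side of every sham library in passage 1 and on the other side in passage 2. The share of all tested genes that did so was not counted, so the 4 are not shown to exceed it. The passage 2 groups also hold the 2 libraries that stood with the opposite treatment. Each difference was tested as an interaction with edgeR's quasi-likelihood test, and none passed. For Gsta4 the log2 fold change was 2.98 in passage 1 and −1.04 in passage 2, a difference of −4.02 (SE 0.81, adjusted p = 0.181). Gclm had 0.86 and −0.61, a difference of −1.47 (SE 0.50, adjusted p = 0.516). For Nqo1 the values were 1.79 and −1.19, a difference of −2.98 (SE 1.27, adjusted p = 0.623). Nox4 went the other way, with −0.86 and 2.23 and a difference of 3.09 (SE 1.21, adjusted p = 0.572), at levels of a few counts per library.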

How the results depend on the processing

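This section gives counts of members called without the share of all tested genes called under the same setting. They show only how the calls moved, not how the members compare with other genes. Counts of members called after IR at day 14, passage 1 (8) and day 90, passage 2 (5) ranged over 0 to 12 and 2 to 12 when a library was left out. The ranges were 0 to 2 for the interaction with day in passage 1, for the interaction with passage at day 90 and for passage in sham at day 90, 0 to 4 for the interaction with passage at day 14, and 0 to 0 elsewhere. With no filter on low counts the calls were 18, 5, 3 and 15 for IR at day 14, passages 1 and 2, and day 90, passages 1 and 2. They were 11 and 2 for the interaction with day in passages 1 and 2, 14 and 3 for that with passage at days 14 and 90, 8 and 5 for passage in sham at days 14 and 90, and 7 and 2 for day in sham in passages 1 and 2. DESeq2 called 2, 5, 1 and 2 members for the interaction with day in passage 1, with passage at day 14, with passage at day 90 and for passage in sham at day 14. Total counts without factors gave 2, 1 and 1 for the interaction with day in passage 1, passage in sham at day 14 and day in sham in passage 2. This scaling moved the median log2 fold change of all genes from near 0 to −0.19 and −0.10 for IR at day 90, to −0.22 and −0.15 for the interactions with day, and to 0.24 and 0.23 for day in sham (passages 1 and 2). It took the members' median across 0 for IR at day 14, passage 2 (−0.01 to 0.03), for IR at day 90, passage 1 (0.07 to −0.11) and passage 2 (0.09 to −0.03), for the interaction with day in passage 2 (0.09 to −0.08) and for day in sham, passage 2 (−0.02 to 0.23). The Gm42418 covariate gave 2 and 0 for IR at day 90, passage 2 and passage in sham at day 90, and fitting only the compared groups gave 1 and 0 there and 1 for passage in sham at day 14. In the sham groups of day 90 alone, Nox4 and Gpx3 did not pass the filter on low counts and were not tested. The 0 for that fit is thus not a lost call. Without the 2 libraries that stood apart, 1 was called for IR at day 14, passage 2, a count that the choice of those libraries by their values leaves without weight. No named member's fold change changed sign in the alternatives run. The cause of these moves was not tested, beyond the fewer samples or other genes tested.

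Whether same-numbered libraries pair was not settled: their deviations correlated from −0.18 to 0.38, with no comparison above 0.1 in all 3. Between the sham passages at day 90, replicates 1, 2 and 3 correlated at 0.38, 0.26 and −0.15 with the same number. Their largest correlations with another number were −0.16, 0.31 and 0.15. The main tests used no pairing. With the replicate number as a block, 7 (without Prdx6) and 6 members were called for IR at day 14, passage 1 and day 90, passage 2, 2 for passage in sham at day 90, and 0 elsewhere. Depth limits the genes near a few counts per library, such as Nox4 and Gpx3.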
